A study of Mus musculus with 6 samples.

Results

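The genes described here are 42 mouse genes of the NRF2, glutathione and antioxidant systems. They were taken by gene symbol from a list of genes with known roles in these pathways, chosen with earlier results of these data known. In all, 20523 genes had a count above 0 in at least 1 library, among them every member but Gsta2. Of the 42, 38 had enough counts to be tested between the genotypes, and Gsta1, Gsta2, Gstp2 and Gstt1 did not. The samples were confluent fibroblast lines from mouse embryos with floxed alleles of Macf1, a gene for a very large protein that links actin filaments to microtubules. All lines were immortalized with the SV40 large T antigen, exposed overnight to AAV8-CMV-Cre, a virus in which the CMV promoter drives Cre recombinase, and grown from single cells. The het group was 3 clones from Macf1flox/+ mice, given as Macf1-/+ after Cre, and the knockout group was 3 clones from Macf1flox/flox mice, given as Macf1-/-. Each library is 1 clone, the het clones had also received Cre, and the number and age of the embryos do not appear in the sources used here. The p-values are thus about the spread between clones only.

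NRF2, encoded by Nfe2l2, is a transcription factor that switches on genes against oxidants and reactive (electrophilic) compounds. In unstressed cells KEAP1 holds it for ubiquitination and degradation, so its activity is set mostly at the level of the protein and cannot be read from its mRNA. Stabilised NRF2 pairs with a small MAF protein and binds antioxidant response elements near its targets, which make glutathione, reduce thioredoxin, supply NADPH, detoxify quinones and carbonyls, and store iron. Several members, such as Sod1, Sod2, Cat, Gpx1 and Gpx4, are antioxidant enzymes that other factors also control.

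The library totals ran from 15661342 to 18209673 estimated counts. Macf1 stood at 694, 696 and 579 CPM (counts scaled by TMM to a common library size) in het replicates 1 to 3 and at 309, 363 and 322 CPM in knockout replicates 1 to 3 (log2 fold change -0.99, SE 0.13, adjusted p = 0.0031, edgeR), so the targeted gene was lower in each knockout clone but still transcribed. Of the fibroblast markers, Vim (1595 to 3607 CPM) and Fn1 (3936 to 6357 CPM) were high in every clone, while Thy1, Lum and Dcn were at or below 1.02 CPM in every clone. The collagen genes Col1a1 (1018 to 1498 CPM in het, 2.69 to 13.8 CPM in knockout clones) and Col1a2 (408 to 1931 against 0.362 to 1.23 CPM) separated the genotypes. Col3a1 (mean 78.5 against 3.49 CPM, adjusted p = 0.0241, edgeR), Pdgfra (6.65 against 1.29, 0.00763), Pdgfrb (127 against 35.7, 0.0401) and S100a4 (717 against 484, 0.0301) were also lower in the knockouts. Summed over the 11 fibroblast markers the level was 9693 to 13238 CPM in het clones and 6007 to 8629 CPM in the knockouts. Most of that sum was Vim and Fn1, which did not pass, so it does not show the fall of the other markers. Summed epithelial markers (8 genes, at most 1.29 CPM), endothelial markers (6 genes, at most 3.15 CPM) and hepatocyte markers (6 genes, at most 1.01 CPM) were low in every clone, and Adgre1, Cldn5, Myod1 and Ttr had no count. The 7 macrophage and leukocyte markers summed to 11.8 to 16.8 CPM in het clones and 22.5 to 26.8 CPM in the knockouts, where Cd14 was the main part. The 7 muscle markers summed to 12.1 to 39.7 against 4.21 to 5.60 CPM, mostly Acta2 in het clones, and the 7 neural markers to 105 to 235 against 117 to 128 CPM, mostly Nes, while Sox2 (mean 8.08 against 0.559 CPM, adjusted p = 0.00333), Tubb3 (7.90 against 0.419, 0.00633) and Map2 (40.6 against 16.6, 0.0316) of that list fell. Des, of the muscle list, rose from 1.10 to 3.09 CPM (adjusted p = 0.0412). The Y-linked gene Eif2s3y stood at 79.7 CPM in het replicate 1, at 0.112 and 0.125 CPM in het replicates 2 and 3, and at 157 to 205 CPM in the knockout clones, and Kdm5d and Uty were also lowest in het replicates 2 and 3. Ddx3y, also Y-linked, stood at 60.0 CPM in het replicate 1 and at no more than 0.207 CPM in every other clone, the knockouts included. The part of these differences between clones in the results on the members was not tested.

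The binding core of NRF2, TGACNNNGC on either strand, was searched in RefSeq promoter windows of GRCm38.p6. A window runs from 250 bases before to 50 bases after an annotated start, and a gene can have several starts, some of them inside the gene. At least 1 window was found for 35 members, and Gclc, Gsr, Prdx6, Hmox1, Akr1b3, Gsta4 and Abcc1 had none. The core was present for 12 of the 35 members (34.3%), against 14.0% of 27025 genes with a window. The matches are shown because the core is the sequence that NRF2 is known to bind, and are written in the direction in which the core reads, with the core in capitals and 10 bases on each side.
Nfe2l2 (chr2:75704885-75704913, minus strand): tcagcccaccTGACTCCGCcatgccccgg
Gclm (chr3:122245413-122245441, minus strand): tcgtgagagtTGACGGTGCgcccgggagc
Txnrd1 (chr10:82859104-82859132, minus strand): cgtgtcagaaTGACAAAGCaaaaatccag
Srxn1 (chr2:152105542-152105570, minus strand): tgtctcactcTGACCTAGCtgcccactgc
Prdx1 (chr4:116685456-116685484, minus strand): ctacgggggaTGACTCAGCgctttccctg
G6pdx (chrX:74428919-74428947, plus strand): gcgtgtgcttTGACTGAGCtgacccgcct
Pgd (chr4:149166061-149166089, minus strand): atttcagagcTGACATTGCactgatcgga
Me1 (chr9:86695902-86695930, minus strand): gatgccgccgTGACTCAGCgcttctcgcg
Gstm5 (chr3:107895802-107895830, plus strand): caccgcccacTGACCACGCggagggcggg
Mgst1 (chr6:138140461-138140489, minus strand): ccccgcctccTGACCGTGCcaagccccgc
Abcc4 (chr14:118676936-118676964, minus strand): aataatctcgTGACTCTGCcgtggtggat
Abcc4 (chr14:118706226-118706254, plus strand): cggcccgcccTGACCCCGCctctcggggc
Sod1 (chr16:90220696-90220724, minus strand): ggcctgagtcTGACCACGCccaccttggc
In Prdx1 and Me1 the core overlaps a match to the AP-1 core TGANTCA, which the AP-1 factors bind. That shorter motif was present for 6 of the 35 members (17.1%), namely Srxn1, Prdx1, Me1, Gstm5, Gstp1 and Gstp2, and for 8.97% of the 27025 genes. The NRF2 core followed by an A, a stricter form, was present for 2 members (Txnrd1 and Pgd), 5.71% of the 35 against 3.45% of genes. The cores of Txnrd1, Srxn1, G6pdx, Pgd, Me1 and Mgst1 and the first Abcc4 core lie inside the annotated spans of their genes. The Pgd and first Abcc4 windows are at starts (149166082 and 118676931) downstream of those of the transcripts Pgd-201 (149166707) and Abcc4-201 (118706205). The G6pdx and Mgst1 windows with a core are likewise at starts (74428880 and 138140527) downstream of those of G6pdx-201 (74429194) and Mgst1-201 (138140316). The Pgd window at its upstream start had no core. A match describes the letters in the window and is no measure of binding, and elements that lie farther from a start are outside these windows.

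For 3 members whose mRNA was lower in the knockout clones, the 250 bases before a RefSeq start are given in full. They are read in the direction of the gene. Gclm shows a core at a moderate change. Mgst1, at the upstream of its 2 RefSeq starts, shows a core at a near loss, and Nqo1 no core at a large change. The transcript Mgst1-201 starts farther upstream (138140316), so most of the Mgst1 stretch, its core included, lies within the span of that transcript. Capitals mark the core, which in Gclm and Mgst1 lies on the opposite strand and so appears as its reverse complement.
Gclm (chr3:122245307-122245556, plus strand): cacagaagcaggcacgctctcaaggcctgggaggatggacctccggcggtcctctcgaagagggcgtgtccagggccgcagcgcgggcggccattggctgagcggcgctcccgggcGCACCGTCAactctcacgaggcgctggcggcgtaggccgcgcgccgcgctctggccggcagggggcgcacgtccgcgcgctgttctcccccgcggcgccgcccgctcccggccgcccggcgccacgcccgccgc
Mgst1 (chr6:138140277-138140526, plus strand): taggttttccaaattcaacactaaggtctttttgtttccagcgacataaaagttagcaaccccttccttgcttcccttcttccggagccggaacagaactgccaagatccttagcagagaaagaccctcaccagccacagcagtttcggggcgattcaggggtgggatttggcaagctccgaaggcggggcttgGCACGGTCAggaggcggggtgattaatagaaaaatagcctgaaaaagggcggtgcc
Nqo1 (chr8:107403206-107403455, minus strand): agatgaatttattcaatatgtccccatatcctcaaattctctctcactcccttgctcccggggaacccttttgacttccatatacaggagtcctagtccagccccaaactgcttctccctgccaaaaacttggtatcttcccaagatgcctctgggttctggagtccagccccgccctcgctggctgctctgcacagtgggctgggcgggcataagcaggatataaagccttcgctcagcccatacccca
No capital stands in the Nqo1 stretch, which says only that the letters of the core are not in it.

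Of the 38 tested members, 13 were lower and 3 higher in knockout than in het clones, while 22 did not pass the threshold (adjusted p below 0.05, edgeR quasi-likelihood test with Benjamini-Hochberg adjustment over 12693 genes). Over all 12693 genes, 28.1% passed, 14.2% lower and 13.9% higher. The members that fell were Keap1, Gclm, Gss, Gsr, Prdx6, G6pdx, Nqo1, Hmox1, Cbr3, Ephx1, Gsta4, Mgst1 and Abcc4, and those that rose were Akr1b3, Gstm2 and Sod2. The median log2 fold change of the tested members was -0.43, against 0.00 for all tested genes, and 28 of the 38 had a negative value, against 6354 of all 12693 genes. For 22 of the 38 members the genotypes were apart in all clones, with the het clones higher in 17 of these. Over all tested genes they were apart for 47.5%, or 6033 genes, with the het clones higher in 3014 of these. Of the 12 members with an NRF2 core in a promoter window, Gclm, G6pdx, Mgst1 and Abcc4 fell and 8 did not pass (median log2 fold change -0.45). Of the 19 tested members with a window and no core, 5 fell, 2 rose and 12 did not pass (median -0.33). Of the 7 members without a window, 4 fell, 1 rose and 2 did not pass (median -0.75). The share that passed was 33.3% with a core, 36.8% with a window and no core, and 71.4% without a window, against 28.1% of all genes. As these are bulk libraries of clones, fewer cells with a transcript and less of it per cell cannot be told apart. Cbr3, Gsta4 and Mgst1 had next to no counts in the knockout clones and were tested because of their het counts, so their direction was fixed by that filter.

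**Figure D1:**
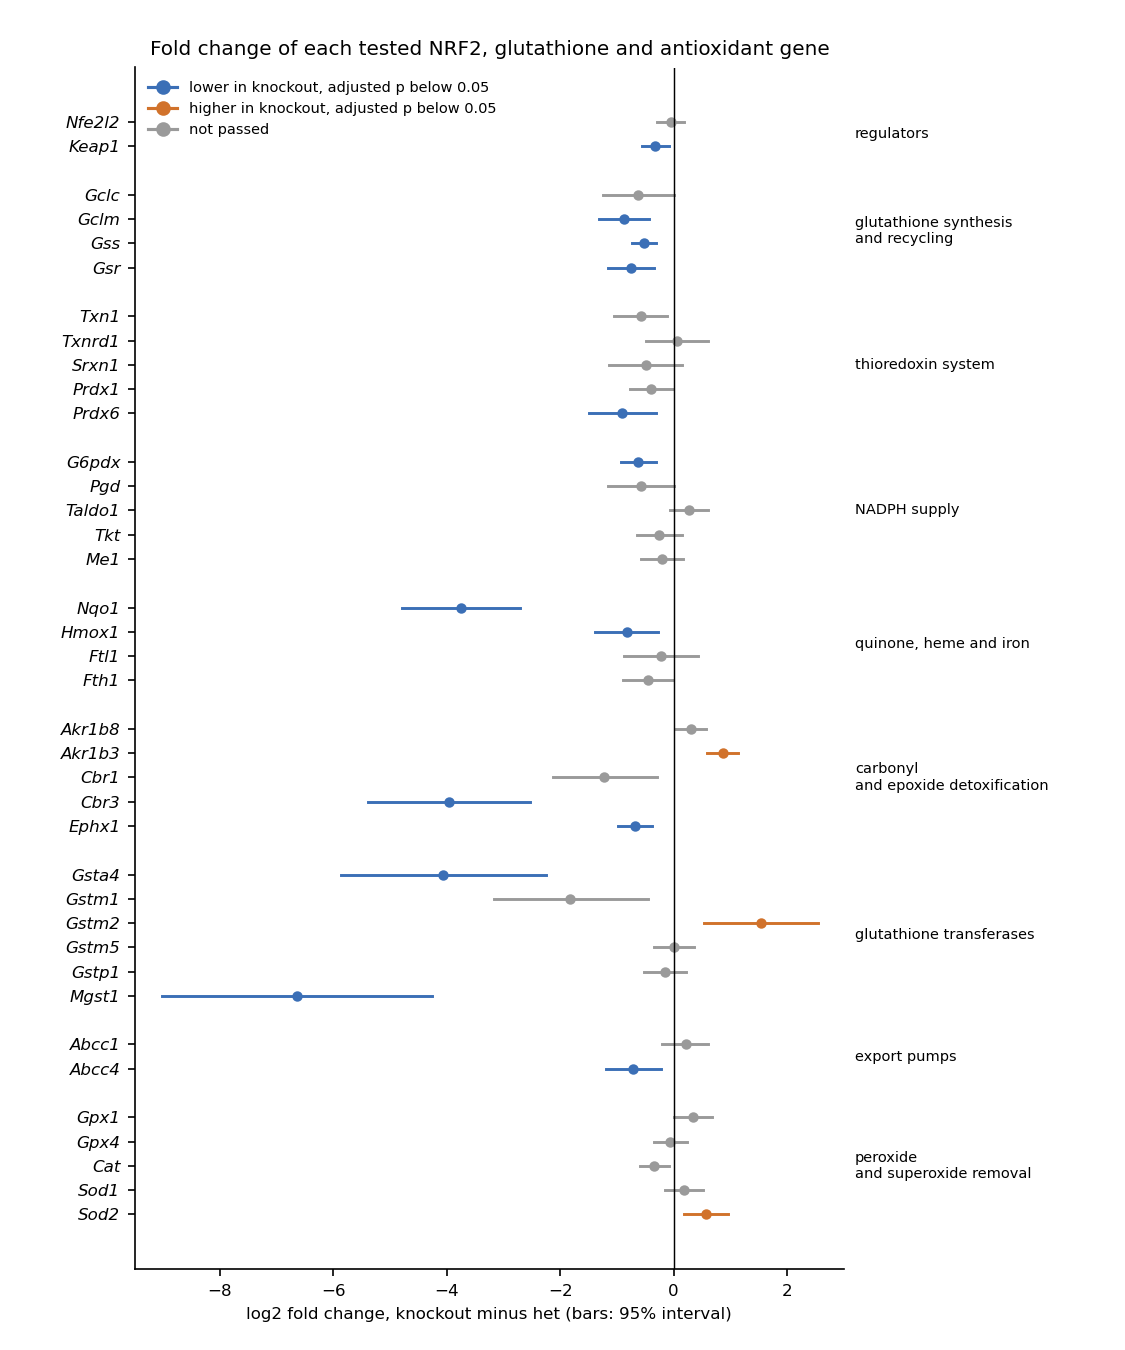
Log2 fold change, knockout minus het, of the 38 tested members, grouped by role; points are estimates, bars 95% intervals, and colour shows the edgeR call. Most points of the glutathione synthesis, quinone and iron groups lie left of 0, Mgst1 lies farthest left at -6.64, and Gstm2 lies farthest right at 1.54.

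Of the regulators, Keap1 fell by a small amount and Nfe2l2 did not pass. Nfe2l2 mRNA stood at 108, 98.3 and 102 CPM in het clones, against 94.1, 91.6 and 111 CPM in the knockouts, so the genotypes overlapped. Its log2 fold change was -0.05 with a 95% interval of -0.30 to 0.19 (adjusted p = 0.73). Keap1, the adaptor that marks NRF2 for degradation, stood at 57.3, 54.8 and 57.7 CPM in het clones, against 41.8, 44.2 and 49.4 CPM in the knockouts. All knockout clones were below all het clones, and the fall was the smallest among the members that passed (log2 fold change -0.33, SE 0.10, adjusted p = 0.0495). That call lay at the threshold and was lost under 10 of 15 alternative settings, with adjusted p from 0.0195 to 0.166.

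Of the 4 genes for glutathione synthesis and recycling, Gclm, Gss and Gsr fell and Gclc did not pass. Gclm encodes the modifier subunit of glutamate-cysteine ligase, the enzyme that limits the rate of glutathione synthesis. Gclm stood at 83.7, 60.1 and 55.6 CPM in het clones, against 42.1, 35.6 and 31.0 CPM in the knockouts (log2 fold change -0.88, SE 0.19, adjusted p = 0.0163). Het replicate 1 was well above the other het clones, and the genotypes did not overlap. Gclc, the catalytic subunit of the same enzyme, stood at 107, 72.5 and 55.0 CPM in het clones, against 59.3, 52.6 and 40.7 CPM in the knockouts. These overlapped, and the difference did not pass (log2 fold change -0.62, 95% interval -1.24 to 0.00, adjusted p = 0.12). Gss, glutathione synthetase, which adds glycine in the last step, varied least within each genotype. Its level was 72.9, 76.8 and 78.6 CPM in het clones, against 52.4, 50.1 and 55.9 CPM in the knockouts (log2 fold change -0.53, SE 0.09, adjusted p = 0.00737). Gsr, glutathione reductase, which returns oxidised glutathione to its reduced form with NADPH, stood at 96.4, 91.5 and 71.9 CPM in het clones, against 58.2, 54.9 and 41.1 CPM in the knockouts (log2 fold change -0.75, SE 0.17, adjusted p = 0.0191). The clones of the genotypes were apart for Gss and Gsr, and the summed level of the 4 genes was 307 ± 49.8 CPM in het clones and 191 ± 21.7 CPM in the knockouts (SD, n = 3 each). Without knockout replicate 2, Gclm (adjusted p = 0.0708) and Gsr (adjusted p = 0.0636) did not pass, and Gsr did not pass without het replicate 2 (adjusted p = 0.064).

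In the thioredoxin system only Prdx6 passed among 5 members. Prdx6, a peroxiredoxin that reduces peroxides of lipids and uses glutathione, stood at 162, 152 and 90.0 CPM in het clones, against 82.6, 75.4 and 57.7 CPM in the knockouts (log2 fold change -0.91, SE 0.25, adjusted p = 0.0347). The lowest het clone was close to the highest knockout clone, and the call was lost under 6 of 15 alternatives (adjusted p from 0.00197 to 0.102). Txnrd1, the cytosolic thioredoxin reductase and a much used NRF2 target, stood at 484, 399.5 and 341 CPM in het clones, against 541, 429 and 304 CPM in the knockouts. The genotypes overlapped fully and the estimate was near 0 (log2 fold change 0.06, 95% interval -0.49 to 0.61, adjusted p = 0.871). Srxn1, sulfiredoxin, which repairs over-oxidised peroxiredoxins and is another common NRF2 readout, stood at 116, 85.2 and 62.9 CPM in het clones, against 77.8, 64.1 and 46.1 CPM in the knockouts. Srxn1 did not pass (log2 fold change -0.49, 95% interval -1.14 to 0.15, adjusted p = 0.215). Thioredoxin itself, Txn1, had a mean of 434 ± 74.0 CPM in het clones and 290.0 ± 63.9 CPM in the knockouts with no overlap, but did not pass (log2 fold change -0.58, adjusted p = 0.0708). Prdx1, the abundant cytosolic peroxiredoxin, had a log2 fold change of -0.40 (adjusted p = 0.104).

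Among the enzymes that supply NADPH, G6pdx fell and the other 4 did not pass. G6pdx encodes glucose-6-phosphate dehydrogenase, the entry step of the pentose phosphate pathway. Its level was 281, 264 and 220.4 CPM in het clones, against 180.4, 167 and 150.1 CPM in the knockouts (log2 fold change -0.62, SE 0.13, adjusted p = 0.0131). The genotypes were apart, and the call was lost under 1 alternative, without knockout replicate 2 (adjusted p = 0.0624). G6pdx lies on the X chromosome (74409483 to 74429194, minus strand, GRCm38). The Y-linked genes Eif2s3y, Kdm5d and Uty were lowest in het replicates 2 and 3 and higher in het replicate 1 and every knockout clone. The part of that difference in the G6pdx result was not tested. Pgd, the next NADPH-producing enzyme of that pathway, ran from 170.4 to 295 CPM in het clones and from 114 to 166 CPM in the knockouts without overlap, and did not pass (log2 fold change -0.57, 95% interval -1.15 to 0.01, adjusted p = 0.124). Taldo1 (log2 fold change 0.27, adjusted p = 0.194) and Tkt (-0.26, adjusted p = 0.287), of the non-oxidative branch, and malic enzyme Me1 (-0.21, adjusted p = 0.36) overlapped between the genotypes.

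The largest change among the abundant members was that of Nqo1. It encodes a quinone reductase that takes quinones past the reactive semiquinone state and is the most used marker of NRF2 activity. Nqo1 stood at 100.4, 42.8 and 37.7 CPM in het clones, against 3.91, 4.92 and 4.60 CPM in the knockouts. Every knockout clone was far below every het clone, and the het clones differed among themselves, with replicate 1 the highest. The mean was 60.3 ± 34.9 CPM against 4.48 ± 0.518 CPM (SD, n = 3 each), 13.5-fold lower, with a log2 fold change of -3.75 (SE 0.43, 95% interval -4.79 to -2.71, adjusted p = 0.00251). All 15 alternatives kept that call, with log2 fold changes from -4.00 to -3.17.

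Hmox1, heme oxygenase 1, which breaks down heme, stood at 91.8, 57.2 and 98.8 CPM in het clones, against 55.8, 45.5 and 38.0 CPM in the knockouts. Hmox1 fell (log2 fold change -0.83, SE 0.24, adjusted p = 0.0397), but the lowest het clone was only just above the highest knockout clone, and 8 of 15 alternatives lost the call (adjusted p from 0.0049 to 0.127). The ferritin chains, which store the iron that heme breakdown frees, overlapped between the genotypes. Ftl1 stood at 2158 ± 422 CPM in het clones and 1853 ± 563 CPM in the knockouts (log2 fold change -0.22, adjusted p = 0.587), and Fth1 at 724 ± 144 and 529 ± 76.4 CPM (-0.45, adjusted p = 0.111). Per transcript length Ftl1 was the most abundant member, with a mean of 2249 FPKM in het and 1976 FPKM in knockout clones, followed by Fth1 at 844 and 632 FPKM.

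Of the genes for carbonyl and epoxide detoxification, Cbr3 and Ephx1 fell and Akr1b3 rose. Cbr3, a carbonyl reductase, stood at 2.33, 4.61 and 3.95 CPM in het clones, against 0.183, 0.0615 and 0.414 CPM in the knockouts (log2 fold change -3.96, SE 0.60, adjusted p = 0.00489). Its counts summed to 184 over the het and 12 over the knockout clones, a pooled ratio of 15.8 (exact 95% interval 8.82 to 31.1, counting error only). Cbr1, the neighbouring carbonyl reductase gene 72.7 kb away on chromosome 16, with a coding sequence 77.4% identical, stood at 14.8, 22.8 and 8.59 CPM in het clones, against 5.01, 6.03 and 8.79 CPM in the knockouts. There the genotypes overlapped by a single het clone, and Cbr1 did not pass (log2 fold change -1.22, 95% interval -2.13 to -0.30, adjusted p = 0.0558), though it passed under 4 of 15 alternatives (adjusted p from 0.0109).

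Ephx1, the microsomal epoxide hydrolase, stood at 77.2, 87.7 and 92.1 CPM in het clones, against 47.6, 51.7 and 61.0 CPM in the knockouts (log2 fold change -0.68, SE 0.13, adjusted p = 0.00973; 0.053 without knockout replicate 2). Akr1b3, aldose reductase, which reduces glucose and aldehydes, went the other way. It stood at 195, 186 and 172 CPM in het clones, against 362, 351 and 295 CPM in the knockouts, 1.82-fold higher (log2 fold change 0.87, SE 0.12, adjusted p = 0.00329), and kept this call under all 15 alternatives. Akr1b8, a related reductase gene 36.6 kb from Akr1b3 on chromosome 6, ran from 70.8 to 83.1 CPM in het clones and from 83.6 to 100.4 CPM in the knockouts (log2 fold change 0.31, 95% interval 0.04 to 0.57, adjusted p = 0.0818). The coding sequences of Akr1b3 and Akr1b8 are 71.8% identical.

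**Figure D2:**
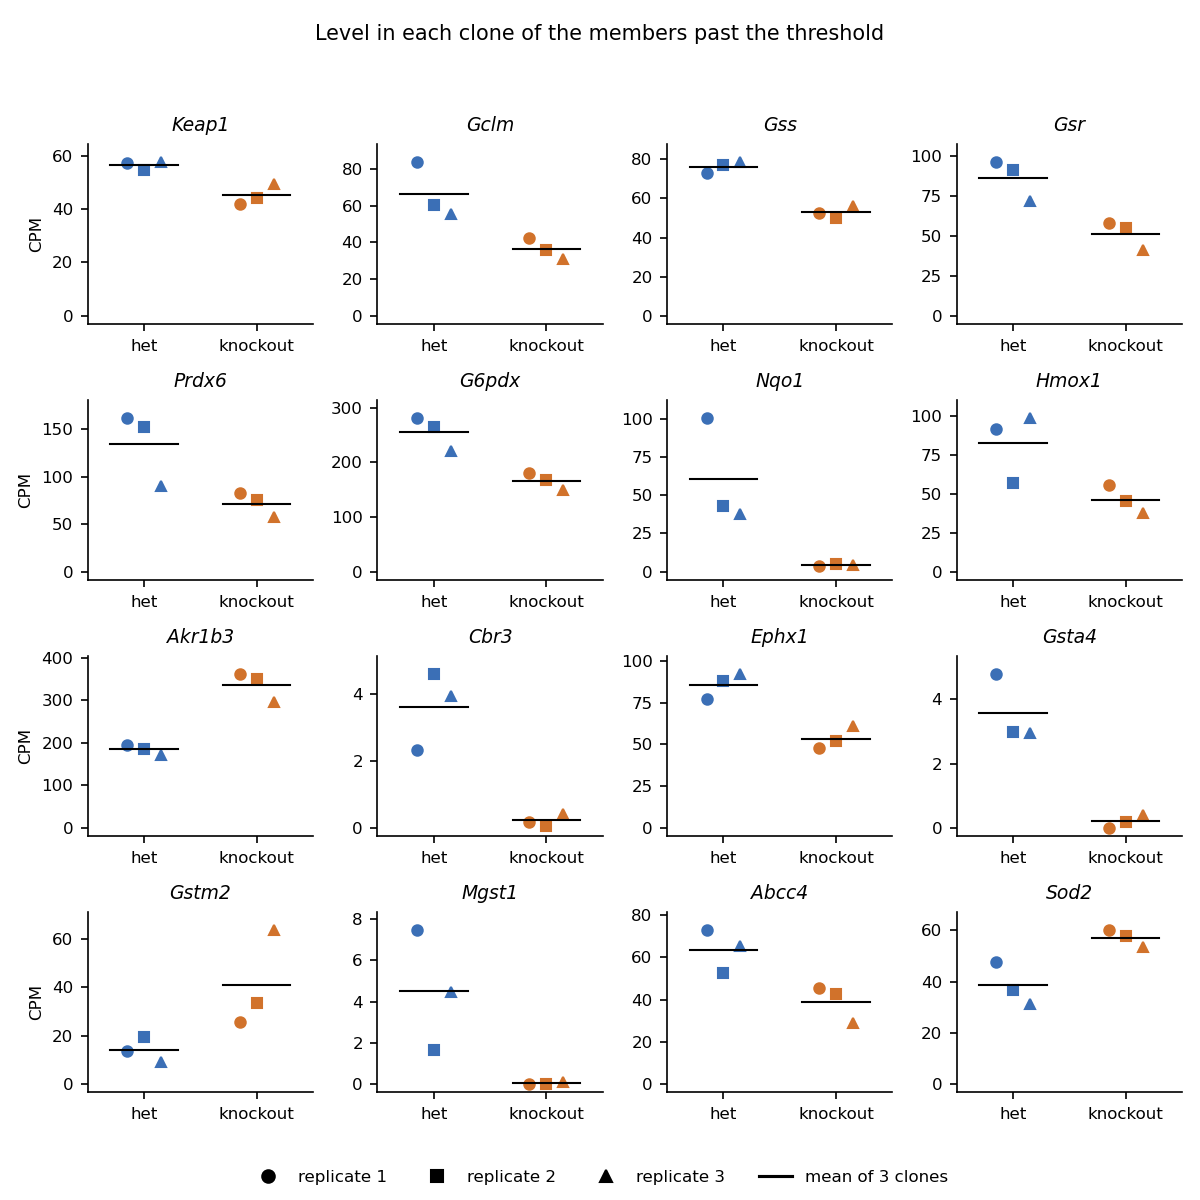
CPM (TMM-scaled, linear axis from 0, a different range in each panel) of the 16 members past the threshold, with 1 point per clone, shapes for replicates and a bar for the mean of 3 clones. In Nqo1, Cbr3, Gsta4 and Mgst1 the knockout clones lie near 0, while in Keap1, Gss and G6pdx the groups lie apart by a smaller margin.

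The glutathione transferases, which join glutathione to reactive compounds, were the most varied group. Of 10 members 6 were tested, Gsta4 and Mgst1 fell, Gstm2 rose, and Gstm1, Gstm5 and Gstp1 did not pass. Mgst1, a transferase of the microsomal and outer mitochondrial membranes, stood at 7.48, 1.63 and 4.45 CPM in het clones, against 0, 0 and 0.103 CPM in the knockouts. The knockout clones together held 2 counts against 225 in the het clones, a pooled ratio of 116 (exact 95% interval 31.7 to 963), and the fitted log2 fold change of -6.64 (adjusted p = 0.00478) depends on the prior count. Gsta4, which acts on the lipid peroxidation product 4-hydroxynonenal, stood at 4.79, 2.98 and 2.95 CPM in het clones, against 0, 0.185 and 0.414 CPM in the knockouts (pooled ratio 16.9, exact 95% interval 9.20 to 34.4; adjusted p = 0.00991, and 0.0625 without knockout replicate 2).

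Gstm1 and Gstm2 lie 25.8 kb apart on the minus strand of chromosome 3 and had fold changes of opposite sign. Gstm1 stood at 83.0, 43.2 and 31.8 CPM in het clones, against 9.04, 9.29 and 26.3 CPM in the knockouts. No knockout clone reached the lowest het clone, but knockout replicate 3 came close, and Gstm1 did not pass (log2 fold change -1.82, SE 0.56, 95% interval -3.17 to -0.46, adjusted p = 0.056). Without that clone it passed (log2 fold change -2.53, adjusted p = 0.0214), and with all clones it passed in DESeq2 (adjusted p = 0.000945), limma-voom (0.0499) and limma on both FPKM scales (0.0491 and 0.0406). Gstm2 stood at 13.8, 19.4 and 9.09 CPM in het clones, against 25.7, 33.4 and 63.8 CPM in the knockouts, with knockout replicate 3 the highest here too (log2 fold change 1.54, SE 0.42, adjusted p = 0.0362). Leaving out any of 4 single clones ended the call of Gstm2 (adjusted p from 0.0607 to 0.0886), as did dropping the filter on low counts (0.07). The share of Gstm2 in the summed counts of both genes was 14.2%, 31.1% and 22.2% in het and 74.0%, 78.2% and 70.8% in knockout clones. The groups were far apart in this share, and an exact two-sided permutation test gave p = 0.1, the smallest value that 3 clones against 3 allow. This share was chosen after the values of both genes were seen. The summed level of both genes overlapped between the genotypes, at 66.8 ± 28.2 CPM in het clones and 55.9 ± 30.0 CPM in the knockouts. Their coding sequences are 85.9% identical, and reads that fit both are divided by estimation.

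Of the other transferases, Gstp1 was the most abundant, at 176 ± 37.9 CPM in het clones and 158 ± 8.37 CPM in the knockouts (log2 fold change -0.15, adjusted p = 0.509). The deposited table lists Gstp1 under 2 identifiers with the same count in every library, and these levels are their sum, so the level of a single entry is lower by a factor of 2. Gstp2, whose coding sequence is 98.1% identical to that of Gstp1, had at most 0.313 CPM in any clone, and the split of reads between them is uncertain. Gstm5 lay between 30.2 and 43.1 CPM in all clones (log2 fold change 0.01, 95% interval -0.35 to 0.36, adjusted p = 0.973).

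Gstt1 was not tested, because het replicate 1 had too few counts for the filter. It stood at 0.0599, 6.57 and 6.21 CPM in het clones, against 0, 0 and 0.0517 CPM in the knockouts, so het replicate 1 resembled the knockout clones in this gene. Its neighbour Gstt3, 2.40 kb away on chromosome 10, was likewise low in het replicate 1, at 2.10, 17.5 and 13.9 CPM in het clones, against 0, 0.308 and 0.569 CPM in the knockouts, with an adjusted p of 0.0177 (log2 fold change -5.18, SE 1.11). Gstt3 passed the filter through its het counts, which fixed its direction, and it lost its call without knockout replicate 2 (adjusted p = 0.0809) and with limma-voom (0.0857). The coding sequences of this pair are 75.7% identical. Gsta1 had 40 counts over the het and 2 over the knockout clones (pooled ratio 20.6, exact 95% interval 5.34 to 176), and Gsta2, 97.6% identical in its coding sequence, had none in any clone, where a count of 0 allows up to 0.0595 CPM over the het and 0.0577 CPM over the knockout group.

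**Figure D3:**
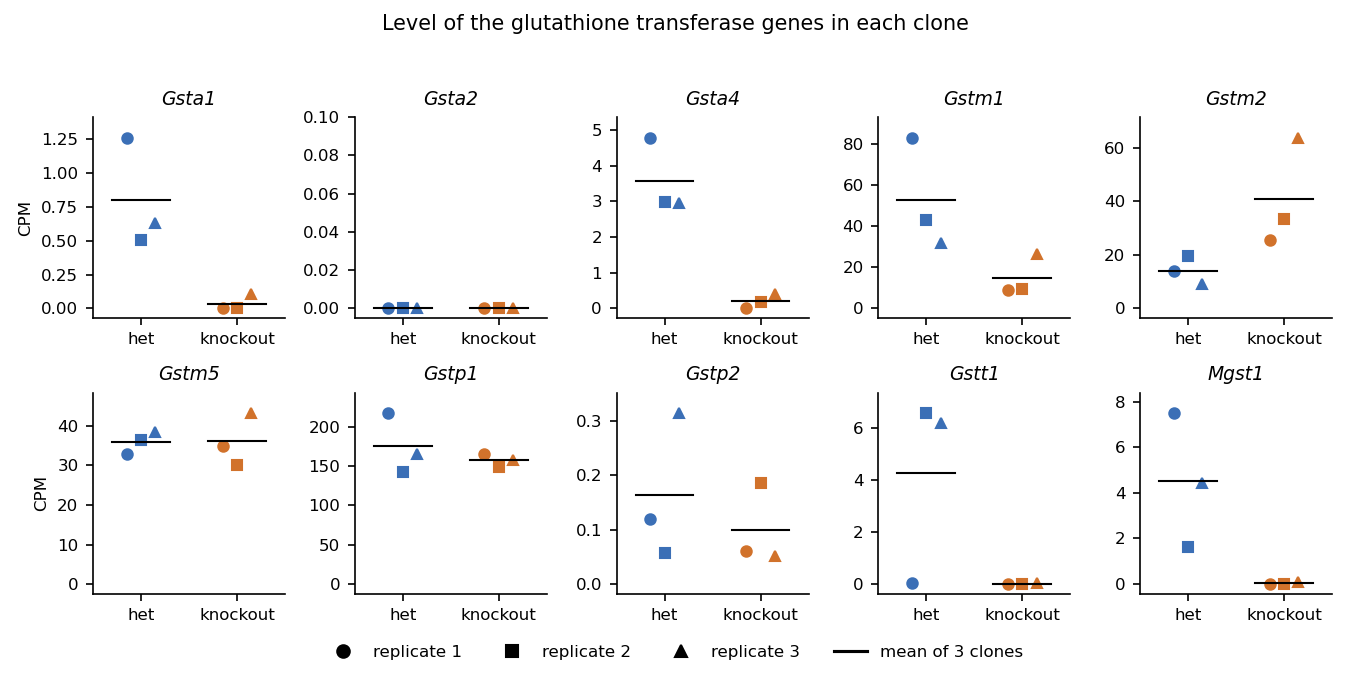
CPM (linear axis, a different range in each panel) of the 10 glutathione transferase members in each clone, with a bar for the mean of 3 clones. Gstm1 is lower and Gstm2 higher in the knockout clones, Gsta4, Gstt1 and Mgst1 lie near 0 there, and Gstt1 is also near 0 in het replicate 1.

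Of the 2 export pumps and the 5 enzymes that remove peroxide and superoxide, Abcc4 fell and Sod2 rose. Abcc4, a pump for organic anions, stood at 73.0, 52.8 and 65.2 CPM in het clones, against 45.6, 42.4 and 28.8 CPM in the knockouts (log2 fold change -0.71, SE 0.20, adjusted p = 0.039). The groups did not overlap, but leaving out any single clone ended the call (adjusted p from 0.0506 to 0.0981). Abcc1, which exports glutathione conjugates, overlapped (log2 fold change 0.21, adjusted p = 0.401). Sod2, the mitochondrial superoxide dismutase, rose from 47.5, 36.9 and 31.3 CPM in het clones to 60.2, 57.8 and 53.7 CPM in the knockouts (log2 fold change 0.57, SE 0.16, adjusted p = 0.0386), and 6 of 15 alternatives lost that call (adjusted p from 0.00718 to 0.126). Catalase, Cat, was lower in each knockout clone, at 70.2 ± 6.05 against 88.9 ± 6.50 CPM, and lay just outside the threshold (log2 fold change -0.34, 95% interval -0.59 to -0.09, adjusted p = 0.0516). It passed under 4 of 15 alternatives (adjusted p from 0.0233), which include RLE size factors and library totals. Gpx1, the cytosolic glutathione peroxidase, was above every het clone in each knockout clone but did not pass (log2 fold change 0.35, adjusted p = 0.111). Sod1 (0.19, adjusted p = 0.356) and Gpx4 (-0.06, adjusted p = 0.748), the peroxidase that protects membrane lipids, overlapped.

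The clones of a genotype differed from each other in a way that ran across many members. Het replicate 1 was the highest het clone in 26 of the 38 tested members (68.4%), against 38.1% of all tested genes. Knockout replicate 1 was the highest knockout clone in 24 (63.2% against 35.2%), and knockout replicate 3 the lowest in 24 (63.2% against 38.0%). Het replicate 3 was the lowest het clone in 21 members (55.3% against 32.3%). Summed over the 5 members of the thioredoxin system, the level was 1968, 1677 and 1384 CPM in het clones, against 1582, 1315 and 1042 CPM in the knockouts. The highest and lowest clones of each genotype thus lay farther apart than the means of the genotypes (1676 and 1313 CPM, SD 292 and 270.0). In the carbonyl and epoxide group, in contrast, the sum was 373, 372 and 348 CPM in het clones, against 516, 504 and 449 CPM in the knockouts, carried by Akr1b3. Without het replicate 1, 10 members were called lower and 3 higher. Over all genes that setting took lower calls from 1808 to 2052, with higher calls at 1763. Without knockout replicate 3, 12 members were called lower and 2 higher, and over all genes 1889 and 1702. Without knockout replicate 2, only 4 were called lower (Gss, Nqo1, Cbr3 and Mgst1) and 1 higher (Akr1b3), while the calls over all genes went from 1808 to 861 lower and from 1763 to 698 higher.

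**Figure D4:**
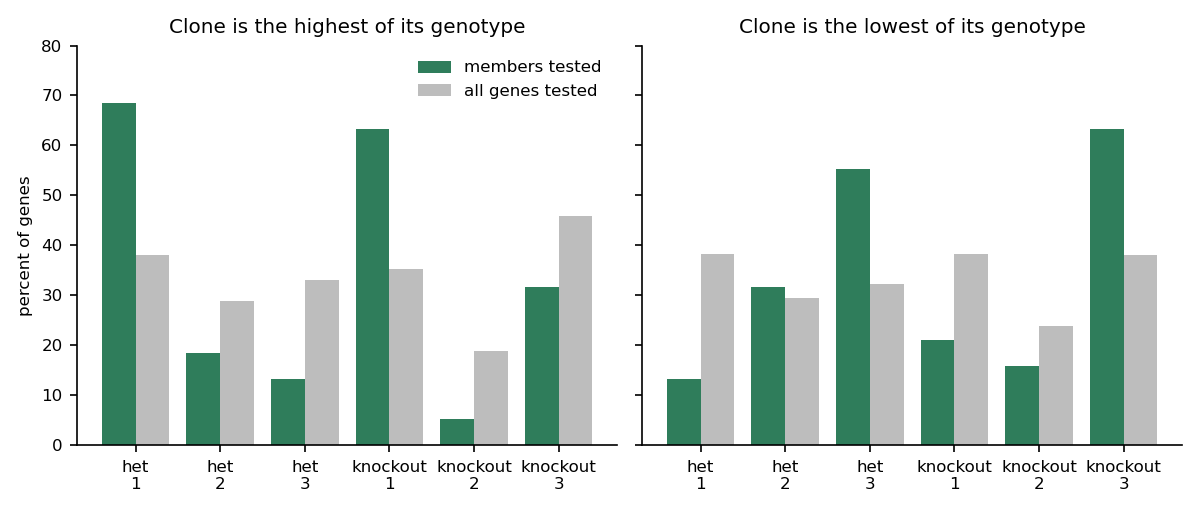
Percent of genes for which each clone was the highest (left) or lowest (right) of its genotype, for the 38 tested members and for all 12693 tested genes. Het replicate 1 is the highest het clone in 68.4% of members and knockout replicate 3 the lowest knockout clone in 63.2%, both above the bars for all genes.

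The deposited counts are per transcript, so the members were also tested at that level. Of 139 member transcripts with a count, 87 were tested, and 1 was higher and 5 were lower in the knockout clones, against 7.94% of 34656 transcripts called over the whole table. Those were Akr1b3-201 (log2 fold change 0.94, adjusted p = 0.0123), Nqo1-201 (-3.67, adjusted p = 0.00962), Cbr3-201 (-3.91, adjusted p = 0.0247), Mgst1-201 (-8.42, adjusted p = 0.0288), Gclm-201 (-1.01, adjusted p = 0.0429) and Gsta4-201 (-4.01, adjusted p = 0.0497). Member transcripts were called no more often than tested transcripts over the whole table. Mgst1-201 had no count in the knockout clones, so its fold change depends on the prior count. Cbr3-201, Mgst1-201 and Gsta4-201 passed the filter through their het counts, which fixed their direction. Nqo1-201, Akr1b3-201 and Cbr3-201 held nearly the whole level of their genes, at 97.2, 41.9 and 37.4 CPM in the het clones for Nqo1-201. Gclm was spread over several transcripts, and Gclm-201, of 5589 bases, stood at 22.8, 16.4 and 19.3 CPM in het clones, against 11.3, 9.92 and 7.74 CPM in the knockouts. Keap1 was likewise split between Keap1-201, Keap1-202 and Keap1-205, none of which passed. No transcript of Gss passed in this fit either. Gss-201 overlapped between the genotypes and its estimate was near 0 (means 39.0 and 36.0 CPM, -0.12, adjusted p = 0.75). Larger falls that did not pass were those of Gss-203 (29.3 to 15.6 CPM, -0.91, adjusted p = 0.257) and Gss-205, a retained intron form (-1.29, adjusted p = 0.136). The fall of Gss as a gene thus lay mostly outside Gss-201. In the authors' deposited table, 19 of 77 member transcripts had an adjusted p below 0.05, against 14.0% of its 24799 transcripts, and 17 of the 19 had a negative log2 fold change. There Gstm1-201 had -1.73 (adjusted p = 0.00294 in the authors' deposited table) and Gstm2-201 had 1.58 (adjusted p = 0.00112 in the authors' deposited table). The direction was the same in the fit made here for 74 of the 76 member transcripts present in both.

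Beyond the members, 122 further genes of these pathways were followed as lists, of which 98 were tested, 19 fell and 12 rose (31.6% called, against 28.1% of all genes). The lists were chosen by role, with earlier results of these data known. Of 17 other regulators of the NRF2 pathway, 1 fell, 2 rose and 14 did not pass (17.6% called). Sesn2, a stress-induced gene whose protein promotes KEAP1 degradation, fell (log2 fold change -0.80, adjusted p = 0.0124), and Mafk (0.47, adjusted p = 0.011) and Maff (0.68, adjusted p = 0.042), small MAF partners of NRF2, rose. Maff lost its call under 6 of 15 alternatives (adjusted p up to 0.13), and Mafk (0.0547) and Sesn2 (0.0617) lost theirs without knockout replicate 2. Bach1, which competes with NRF2 at its elements, stood at 46.8, 54.8 and 58.0 CPM in het clones, against 55.4, 55.9 and 47.0 CPM in the knockouts, with overlap (log2 fold change -0.01, adjusted p = 0.95).

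Of 13 tested genes of glutathione metabolism outside the members, 5 fell and 0 rose in edgeR (1 with an unadjusted p below 0.05, 0 in DESeq2 and 0 in limma-voom). The share called in edgeR was 38.5%, against 28.1% of all genes. Chac1, which degrades glutathione, stood at 34.7, 19.1 and 22.1 CPM in het clones, against 2.93, 3.45 and 2.90 CPM in the knockouts (log2 fold change -3.03, SE 0.27, adjusted p = 0.000812). Cth, cystathionine gamma-lyase, which makes cysteine for glutathione, stood at 25.9, 17.3 and 12.4 CPM in het clones, against 3.12, 3.26 and 3.10 CPM in the knockouts (log2 fold change -2.55, SE 0.29, adjusted p = 0.00208). Slc7a11, the cystine importer, stood at 23.2, 5.67 and 6.14 CPM in het clones, against 2.32, 2.58 and 2.43 CPM in the knockouts (log2 fold change -2.25, SE 0.59, adjusted p = 0.0316). In these 3 genes the knockout clones lay close together and het replicate 1 was the highest clone. Slc7a11 lost its call under 4 of 13 alternatives, and Chac1 and Cth kept theirs under all 15.

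Of 11 other transferases and peroxidases tested, 1 fell (Gstt3, above) and 2 rose (27.3% called, against 28.1% of all genes). Those that rose were Gsto2, at 0.778, 0.337 and 0.501 CPM in het clones, against 1.89, 1.60 and 1.60 CPM in the knockouts (adjusted p = 0.0222), and Gpx8, a peroxidase of the endoplasmic reticulum (log2 fold change 0.54, adjusted p = 0.0311). Gsto2 had 13, 6 and 8 counts in the het clones and passed the filter through its 31, 26 and 31 counts in the knockouts, which favoured this direction. Gsto2 lost its call under 4 of 12 alternatives (adjusted p up to 0.0821) and Gpx8 under 4 of 15 (up to 0.105), all of them with a clone left out. Of 20 other thioredoxin, peroxiredoxin and glutaredoxin genes, 6 rose and 3 fell (45.0% called, against 28.1% of all genes). Prdx4, the peroxiredoxin of the endoplasmic reticulum, stood at 90.1, 83.4 and 88.9 CPM in het clones, against 139, 128 and 137 CPM in the knockouts (log2 fold change 0.62, adjusted p = 0.00347). Glrx, a glutaredoxin, fell (-1.62, adjusted p = 0.00517) and Tmx1 rose (0.59, adjusted p = 0.00597), but with the local chromosome median taken out Tmx1 had 0.21 (adjusted p = 0.157). Txnip, which binds and inhibits thioredoxin, stood at 40.9, 33.5 and 57.5 CPM in het clones, against 88.3, 73.5 and 167 CPM in the knockouts (log2 fold change 1.32, SE 0.35, adjusted p = 0.0358), and lost this call under 6 of 15 alternatives, among them library totals, no filter and the local chromosome median taken out (adjusted p up to 0.104).

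Of 26 tested genes among other NRF2 targets and detoxification genes, 8 fell and 2 rose (38.5% called, against 28.1% of all genes). Pir, pirin, whose gene is a known NRF2 target, stood at 10.8, 11.7 and 12.5 CPM in het clones, against 2.63, 3.26 and 3.72 CPM in the knockouts (log2 fold change -1.86, SE 0.21, adjusted p = 0.00207). Sod3, the secreted superoxide dismutase, stood at 23.3, 24.8 and 34.7 CPM in het clones, against 1.04, 2.03 and 0.258 CPM in the knockouts (-4.66, adjusted p = 0.00341). Ugt1a6a, a glucuronosyltransferase gene, had 147 counts over the het and 0 over the knockout clones, at least 50.5-fold lower against a floor of 3 counts over the group. Of 11 tested NADPH oxidase and p53-linked genes only Cyba passed (9.09% called). Cyba, the shared membrane subunit of several NADPH oxidases, stood at 26.1, 39.2 and 47.1 CPM in het clones and had no count in any knockout clone, at least 647-fold lower against the same floor. Ugt1a6a and Cyba were tested because of their het counts alone, so they could only be called lower.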

How the data were processed

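Poly(A) libraries of 6 clones, 3 per genotype, were analysed. Trimmomatic 0.36, kallisto 0.42.5, edgeR and GRCm38.p4 are listed, with no role, per the submitters' processing notes. For 96626 transcripts the authors deposited estimated counts, and for some also FPKM values, and a comparison per transcript with log2 fold changes and p-values, per the file headers. GENCODE M21 (GRCm38) gave the gene of 95301 transcripts and the authors' table that of 253 more, and counts were summed per gene. The remaining 1072, at most 0.0273% of a library, were not used. A transcript listed under a second identifier of Gstp1, with identical counts, was summed with it.

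Sums were rounded and tested with edgeR 4.0.16 (R 4.3.3): filterByExpr with minimum count 10 and total 15, TMM scaling, robust quasi-likelihood F test, two-sided, Benjamini-Hochberg adjustment over 12693 genes, threshold 0.05. Standard errors came from the F statistic. Pooled ratios compare summed counts with exact 95% intervals, and a count of 0 is taken as allowing up to 3 counts. Alternatives were DESeq2 1.42.0, limma 3.58.1 (voom, and FPKM with pseudocounts of 1 and 0.1), other scalings and filters, the median of 40 neighbouring genes taken out, and each clone left out. Those for the companion lists and Macf1 were added after seeing the data. Splitting reads among transcripts and near-identical genes is an estimate by the authors' tool and can shift levels between copies.

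Members and lists were chosen with earlier results of these data known. The text names every member, gives values per clone for those that passed and for 8 regulators and common NRF2 targets, and names up to 3 passing genes with the smallest adjusted p of each companion list, besides Slc7a11, Bach1 and Txnip; other genes with values per clone were chosen after their values were seen. Promoter windows are from RefSeq.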

Additional observations from a re-analysis of the deposited data

How the results depend on the processing

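Each gene was refitted under up to 15 alternatives. Of the 16 members that passed, 5 kept their gene-level call under every alternative fitted (Gss, Nqo1, Akr1b3, Cbr3 and Mgst1). No single transcript of Gss passed in the main fit. Another 4 members lost their call under 1 alternative, Gsr lost it under 2, and 6 lost it under at least 5. None of the 16 changed sign under any of these alternatives. Of the 22 that did not pass, 8 passed under at least 1 alternative. The count of members called lower was 11 to 14 where all clones were kept (19 with DESeq2) and 4 to 12 with a clone left out; the count called higher was 2 to 3 and 1 to 3. Among companions, higher calls went from 12 to 7 with at least 1 CPM in every library and to 4 to 12 with a clone left out, and lower calls to 11 to 25. Over all genes, DESeq2 gave 2120 higher and 2230 lower calls, against 1763 and 1808 in the main fit. Leaving out a clone gave 698 to 1763 higher and 861 to 2052 lower calls over all genes. Member transcripts called went from 6 to 0 to 5 with a clone left out (0 in edgeR without knockout replicate 2, where 24 had an unadjusted p below 0.05), and to 19 by the adjusted p in the authors' deposited table. The NRF2 core followed by A left 2 of 12 members. The cause of these shifts was not tested, beyond the smaller number of clones.

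Signs turned only for genes that passed under none of the settings. Taking out the local chromosome median gave a log2 fold change of 0.17 for Nfe2l2, 0.10 for Ftl1, -0.08 for Sod1 and -0.07 for Gstm5. Leaving out each clone in turn gave ranges across 0, from -0.16 to 0.25 for Txnrd1, -0.39 to 0.01 for Ftl1, -0.15 to 0.12 for Gstm5, -0.30 to 0.03 for Gstp1, -0.18 to 0.02 for Gpx4 and -0.10 to 0.06 for Bach1. Gstm5 had 0.00 (just below 0) with DESeq2, RLE size factors and library totals, and -0.03 with at least 1 CPM in every library. Bach1 had 0.01 on both FPKM scales and without a filter. No paired analysis was possible because the labels give the clones no shared replicate numbers. Members near 0 CPM in the knockout clones are limited by depth, and their fold changes depend on a few counts.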
